A study of Mus musculus with 6 samples.

Results

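UNC5B is a cell surface receptor for netrin-1, a secreted protein related to laminins that is best known for steering growing axons. UNC5 receptors carry a death domain in their cytoplasmic part and are called dependence receptors: with netrin-1 bound they permit survival, and without it they can set off apoptosis. Carcinoma cells often make netrin-1 themselves, and the series addresses how the ligand and this receptor relate to epithelial to mesenchymal transition (EMT), in which tumour cells loosen their junctions and take up motility and matrix-degrading activity. The comparison described here asks which transcripts differed when Unc5b was knocked down in epithelial tumour cells.

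The cells are LKPR EPCAM+, an established line that stems from a squamous cell carcinoma of mouse skin, and their RNA was sequenced. Per the labels, every group carried Lgr5CreER (an inducible Cre recombinase driven by the stem cell gene Lgr5), p53fl/fl (alleles of the tumour suppressor gene that Cre can delete) and Rosa26-YFP+/+ (a fluorescent reporter of recombined cells). All groups had been transduced with a lentiviral vector of the pLKO.1-puro type, which confers puromycin resistance: the TRC1 empty vector, a vector against Unc5b or a vector against Ntn1, the gene of netrin-1, with 2 libraries in each group. The 2 libraries labelled Unc5b knock-down were set against the 2 labelled empty vector, which are 4 of the 6 libraries, chosen by treatment label alone. The 2 Ntn1 knock-down libraries contributed to the estimate of the spread and served as a further reference. Living cells positive for YFP and for EPCAM, an epithelial adhesion molecule, were sorted 6 days after plating, so any cell without surface EPCAM is missing from the libraries. Neither the hairpin sequences nor the number of hairpins per gene is given in the sources used here, and no label states whether a group's 2 libraries are separate cultures. The p-values therefore measure only the spread between these libraries.

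The deposited values are whole numbers with a total near 20 M for each library, and they are called scaled values below. They are not divided by gene length, so a gene is compared with itself across libraries and never with another gene. From the spacing of the low values, the 4 libraries held an estimated 8.64 to 10.2 M assigned reads, and 3 reads corresponded to scaled values of 5.9 to 6.95, a floor that covers counting error only. Across genes, Pearson's r was 0.98 between the empty vector libraries, 0.986 between the Unc5b knock-down libraries and 0.936 to 0.958 between the groups. Within the empty vector group, library 2 was at least 2-fold above library 1 at 228 of 11410 genes with a mean of at least 100 and at least 2-fold below it at 88. Within the Unc5b knock-down group these numbers were 21 and 111. In bulk RNA, fewer cells that express a gene and less of its RNA per cell cannot be told apart.

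Unc5b itself (ENSMUSG00000020099, minus strand of chromosome 10 at 60762593 to 60831581, GRCm38) had scaled values of 1527 and 1573 with the empty vector and of 419 and 352 with its own knock-down. Both knock-down libraries lay far below both controls, and the Ntn1 knock-down libraries, at 2311 and 2382, lay above them. The difference from the empty vector was 4.02-fold (log2 fold change -2.0 ± 0.13 SE, adjusted p = 0.000252). Without any 1 of the 6 libraries the log2 fold change stayed between -2.12 and -1.88 and the call was kept.

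Among the other genes of netrin signalling, 14 of 25 genes found in the table had a mean of at least 20 and were tested. With Unc5b included, 4 of the 14 fell and none rose, with a median log2 fold change of -0.38 against 0.04 for all genes tested. Unc5b was the target of the knock-down, so its own fall, which enters this count and median, says nothing about the other genes. Dapk1 and Flrt2, neither of them called, reached the filter only through the Ntn1 knock-down libraries (292 and 312, and 314 and 278). The percentage of all tested genes called lower was 6.07%, and 5.90% were called higher. Ntn1, the ligand gene, read 1566 and 2588 in the empty vector and 1319 and 771 with the Unc5b knock-down. Its 2 groups did not overlap, but the difference did not pass the test (log2 fold change -0.99 ± 0.29 SE, adjusted p = 0.0638). In the Ntn1 knock-down it read 359 and 431. A lack of overlap is common here: of all tested genes, 28.7% lay above and 23.2% below the empty vector libraries without overlap.

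Unc5c, which encodes another netrin receptor of the same family, fell from 37 and 149 to 0 and 2, which is below the 3-read floor (adjusted p = 0.00735). Gas1, a hedgehog co-receptor gene that also stands in this list, read 77 and 281 in the empty vector against 28 and 2 (adjusted p = 0.0261). Rgma, a ligand gene of neogenin, fell from 379 and 421 to 180 and 76 (adjusted p = 0.0215). Leaving out library 2 of the empty vector or of the Unc5b knock-down ended the calls of Gas1 and Rgma and left 2 of the 4 calls, and leaving out either Ntn1 knock-down library ended that of Gas1. Leaving out empty vector library 1 raised the count of lower genes in this list to 7. Neo1, the gene of the netrin receptor neogenin, showed no such difference, at 4151 and 4870 against 4741 and 3961. Dcc, Unc5a and Unc5d, the remaining receptors of the classical netrin families, were at 0 in all 6 libraries. Among 18 tested genes for cytoplasmic partners of dependence receptors, Rac1 (1.45-fold) and Src (1.38-fold) rose and Ppp2r2c, a regulatory subunit of the phosphatase PP2A, fell from 1435 and 1457 to 566 and 324. The share called in this list was little above the 12.0% of all genes tested. Src kept its call only without empty vector library 1, Rac1 lost it without Unc5b knock-down library 1, without Ntn1 knock-down library 1 and with the regional centring defined below, and Ppp2r2c lost it without Unc5b knock-down library 2. Of the 3 calls, 1 was kept without either Unc5b knock-down library or Ntn1 knock-down library 1, and 2 without empty vector library 2 or Ntn1 knock-down library 2, while 3 genes were called higher and 3 lower without empty vector library 1. In the Ntn1 knock-down Ppp2r2c was lower still, at 38 and 18.

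Across the 15330 genes tested (of 49671 in the table), 1835 were called at an adjusted p under 0.05 by limma, which is 12.0%. Of these, 904 were higher and 931 lower, and 424 of the higher and 515 of the lower genes differed by at least 2-fold on the log2(value + 5) scale. The number rested on single libraries: it was 680 without Unc5b knock-down library 2, 991 without library 1, 950 and 972 without Ntn1 knock-down library 1 or 2, and 1466 to 2428 without an empty vector library. All 6 of these fits shared 545 of the 1835 calls. Unless a sentence says otherwise, each gene named below as having risen or fallen was called in all 6 of these fits. Overlapping exons add a further limit, since the strand setting of the authors' counting is not given: over 10% of the exon bases of Il1a, Timp3, Tmem47, Pdgfa, Pcdh7, Fbn1, Rspo3, Serpinb2, Csf2, Tapbp, Krt6a, Cryab, Chst15, Mmp1b, Cish, Gbp7, Gas1, H2-Q4, Notch1, Angpt1 and A630095E13Rik, and 54.6%, 51.4% and 46.5% of those of Sox4, Rac1 and Twist2, lie in another gene's exons.

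The largest rises took in genes of very different function. Lepr, the leptin receptor gene, read 6 and 0 in the empty vector and 413 and 310 with the Unc5b knock-down (log2 fold change 5.61 ± 0.40 SE, adjusted p = 0.000298). Tmem47, which encodes a junctional membrane protein of the claudin superfamily, rose 39.6-fold, from 26 and 46 to 1481 and 1369 (adjusted p = 3.57e-05). Both knock-down libraries were near each other in each case. The largest rises and falls were chosen among called genes without overlap between the 2 groups, so the lack of overlap adds no support. Zfp334, a zinc finger gene, rose 21.5-fold from 8 and 32 to 449 and 410. Il13ra2, the gene of a decoy receptor for interleukin-13, rose 21.7-fold from 6 and 23 to 393 and 236. Ptpn22, a tyrosine phosphatase gene best known from lymphocytes, rose 14.2-fold from 55 and 23 to 462 and 644. Several further genes came up from at or near 0, among them Auts2 (0 and 2 against 92 and 111), Trim68 (2 and 5 against 120 and 160), Slfn3 (0 and 2 against 85 and 79) and Disp2 (4 and 2 against 177 and 100). These genes, like Lepr, reached the filter mean only through knock-down libraries, and they were picked for their rise. Their calls therefore add no support to these rises. Other genes named here whose empty vector mean lay under the filter mean also passed the filter only through knock-down libraries.

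Several of the largest falls ended below the 3-read floor. Cxcl12, a chemokine gene, read 126 and 777 with the empty vector and 4 and 0 with the knock-down, and the 2 control libraries themselves differed widely. Colec12, a scavenger receptor gene, was steadier, at 147 and 174 against 2 and 0 (adjusted p = 0.000331). Flt4, the gene of VEGF receptor 3, fell 33.6-fold from 1262 and 1392 to 51 and 28 (adjusted p = 7.34e-05). Nrp1, a co-receptor gene for semaphorins and VEGF, fell from 1439 and 4898 to 220 and 67. Foxf2, a forkhead factor gene, fell from 322 and 215 to 19 and 5. The plot of the largest changes in each direction gives every library of these genes. Gm10718, Gm10715 and Gm21738, which were also among the 20 largest falls, are predicted genes with near-identical copies, so their values are uncertain, and the former 2 lost their calls with regional centring (defined below).

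**Figure D1:**
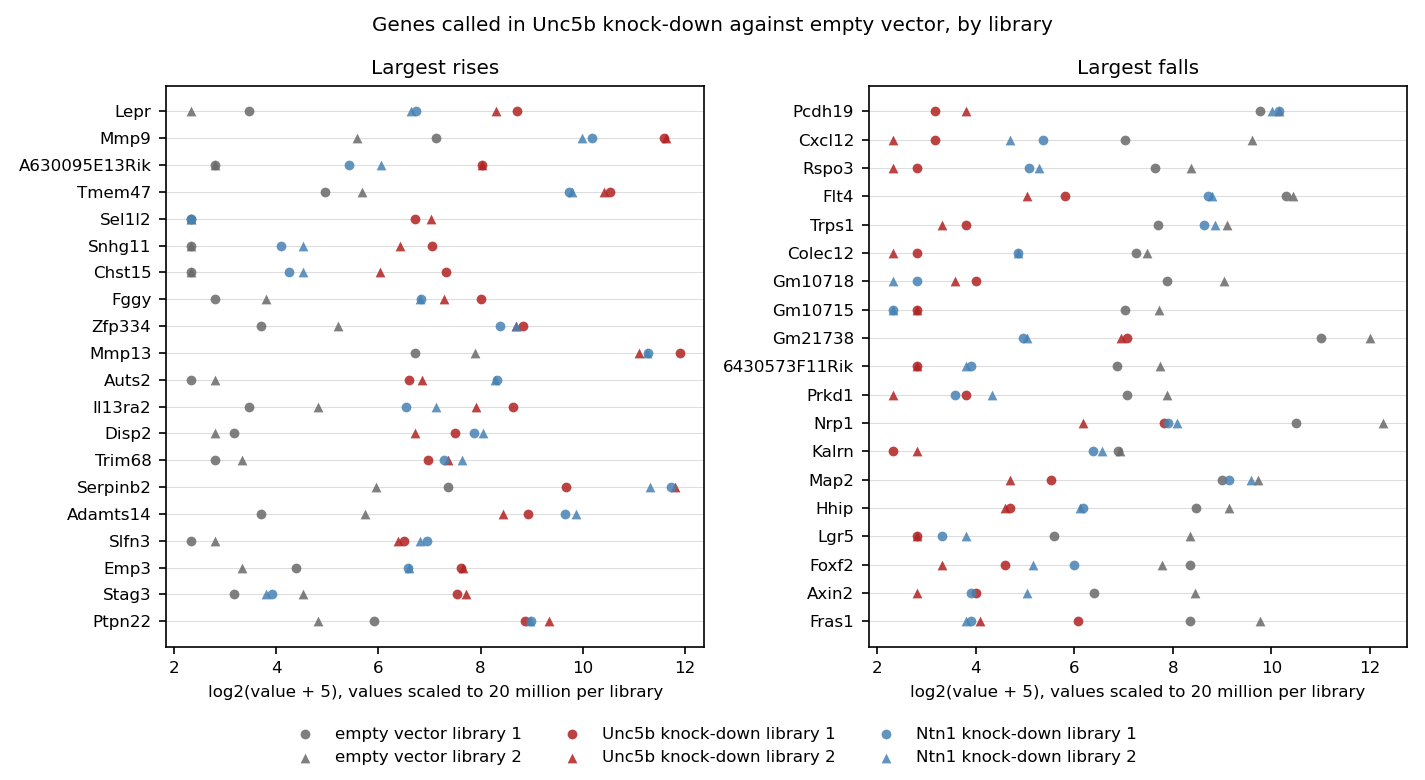
Scaled values of the genes among the 20 largest rises and the 20 largest falls in Unc5b knock-down against empty vector that are reported here, as log2(value + 5), 1 point per library; circles are library 1 and triangles library 2 of each group. The red points of the Unc5b knock-down lie right of the grey empty vector points in the left panel and left of them in the right panel, because the genes were chosen for that, while the blue Ntn1 knock-down points, which entered the choice only through the filter and the estimate of the spread, lie beside the red ones for Ptpn22 and Zfp334 and within or beside the grey ones for Pcdh19, Trps1, Map2, Sel1l2 and Stag3.

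Part of the difference followed the position of genes on chromosomes. On chromosome 5 the median log2 fold change of 794 genes with a mean of at least 100 was 0.34, and 22.2% of them were called higher against 6.46% over the 11410 such genes of all chromosomes. A stretch of that chromosome from Supt7l (start at 31.51 Mb) to Zbtb49 (38.19 Mb) went the other way: its 63 genes had a median of -0.62, 96.8% lay below 0, and 34 were called lower. Near the end of chromosome 12, from Psmc1 (100.11 Mb) to 4930427A07Rik (113.16 Mb), the median of 88 genes was 0.54 and 37 were called higher with none lower. Chromosome 8 (median -0.25, 106 of 661 lower) and chromosome 17 (median -0.22, 70 of 547 lower) were shifted downwards, and chromosome 18 upwards (median 0.31). In each of these places both Unc5b knock-down libraries showed the shift, and the difference between the empty vector libraries was at most 0.08 in the stretches of chromosome 5 and 0.06 in that of chromosome 12.

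In the Ntn1 knock-down libraries the medians against the same controls were -0.74 and -0.78 in the low stretch of chromosome 5 and 0.45 and 0.47 near the end of chromosome 12. Along the 610 genes of chromosome 5 beyond the low stretch, where 158 genes were called higher in the Unc5b knock-down, the medians were 0.40 and 0.37 in the Unc5b and 0.19 and 0.16 in the Ntn1 knock-down libraries. DNA copy number was not measured, and its part in these results was not tested. The stretches were delimited after the values had been seen, and no test was made of them. With regional centring, in which the running median of 51 neighbouring genes was subtracted in each library, 1191 of the 1835 calls were kept and 106 were added, so that 8.46% of all genes were called. Where a gene named below lost its call by this step, its sentence says so.

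**Figure D2:**
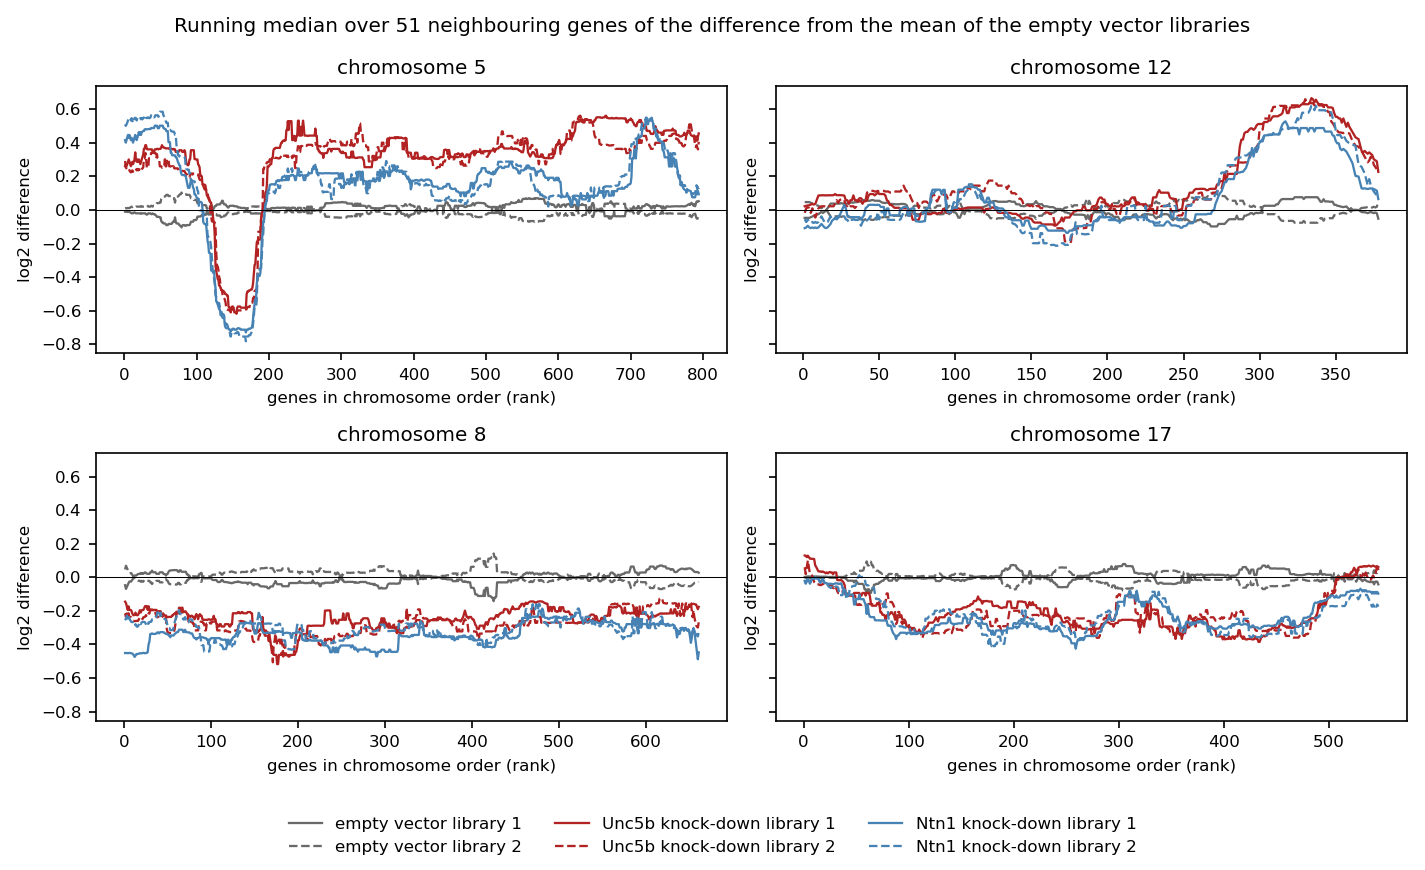
Running median over 51 neighbouring genes of the log2(value + 5) difference from the mean of the empty vector libraries, by rank along chromosomes 5, 12, 8 and 17, with 1 line per library (solid for library 1, dashed for library 2). Grey empty vector lines stay near 0, while the red Unc5b and blue Ntn1 knock-down lines both dip within chromosome 5, rise near the end of chromosome 12 and lie below 0 along most of chromosomes 8 and 17; beyond the dip of chromosome 5 the blue lines lie below the red ones along most of the way.

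Several genes of secreted matrix metalloproteinases, the enzymes that degrade extracellular matrix, rose while an inhibitor gene fell. Of 15 tested genes for metalloproteinases and their TIMP inhibitors, 6 rose and 1 fell (median log2 fold change 0.63). Mmp9, the gelatinase B gene (chromosome 2), stood at 134 and 43 in the empty vector and at 3061 and 3171 with the knock-down, 35.2-fold higher (log2 fold change 5.26 ± 0.40 SE, adjusted p = 0.000357). Mmp13, which encodes collagenase 3, stood at 100 and 231 against 3819 and 2177, 18.1-fold higher (adjusted p = 0.00047). In both genes each knock-down value lay far above each control value, and the Ntn1 knock-down libraries were high as well, at 1158 and 1015 for Mmp9 and 2475 and 2428 for Mmp13.

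Mmp12, Mmp1b, Mmp3 and Mmp10 rose too. Mmp12, macrophage elastase, read 4 and 7 against 64 and 88, Mmp1b, an interstitial collagenase gene of rodents, 24 and 9 against 126 and 132, and Mmp3, stromelysin 1, 22 and 27 against 143 and 197. Mmp10, stromelysin 2, rose 3.24-fold from 29 and 75 to 177 and 160, and this was the only call of the group lost without a library, namely without either Unc5b knock-down library or either Ntn1 knock-down library, leaving 6 of 7. Timp3, the gene of a matrix-bound inhibitor of these enzymes, fell 8.29-fold, from 12061 and 17275 to 1605 and 1936 (log2 fold change -3.03 ± 0.18 SE, adjusted p = 0.00016). Timp2 (11398 and 14428 against 12986 and 9082) and Mmp14, the membrane-type enzyme (4842 and 5979 against 5339 and 4535), overlapped between the groups. The plot of protease genes shows each member by library.

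**Figure D3:**
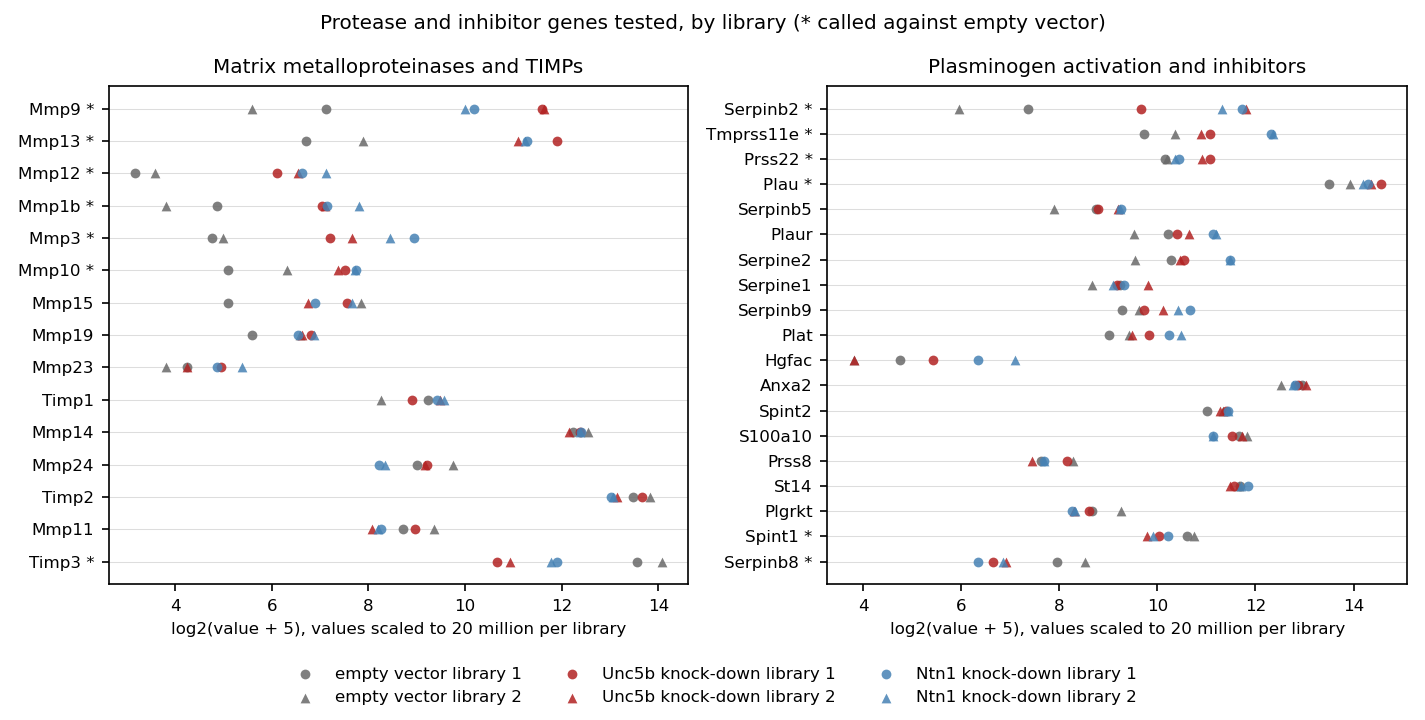
Scaled values as log2(value + 5) of the tested matrix metalloproteinase and TIMP genes (left) and plasminogen system genes (right), 1 point per library, ordered by fold change, with an asterisk where the gene was called. The red points lie right of the grey points for Mmp9, Mmp13, Mmp12, Mmp1b, Mmp3, Mmp10 and Serpinb2, and left of them for Timp3, and the points of Timp2 and Mmp14 are mixed.

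Mmp13, Mmp12, Mmp1b, Mmp3 and Mmp10 lie close together on chromosome 9, within a cluster of metalloproteinase genes. Other members of that cluster were near the floor and not tested: Mmp1a read 4 and 7 against 17 and 5, and Mmp8 was at 0 in all 6 libraries. The promoters of the 5 genes that rose are shown. Each line gives 250 bases before and 50 after a RefSeq start (GRCm38.p6), 5′ to 3′ on the gene's strand, with matches to the AP-1 motif TGANTCA in capitals, searched on both strands. The windows are chr9:7272264-7272563 (plus) for Mmp13, chr9:7347124-7347423 (plus) for Mmp12, chr9:7387977-7388276 (minus) for Mmp1b, chr9:7445572-7445871 (plus) for Mmp3 and chr9:7502092-7502391 (plus) for Mmp10.
Mmp13: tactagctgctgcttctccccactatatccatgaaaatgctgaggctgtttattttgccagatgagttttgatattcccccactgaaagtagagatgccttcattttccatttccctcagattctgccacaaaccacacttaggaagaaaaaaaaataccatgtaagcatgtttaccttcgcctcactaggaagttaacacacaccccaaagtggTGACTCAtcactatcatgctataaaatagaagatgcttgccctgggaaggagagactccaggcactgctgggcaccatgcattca
Mmp12: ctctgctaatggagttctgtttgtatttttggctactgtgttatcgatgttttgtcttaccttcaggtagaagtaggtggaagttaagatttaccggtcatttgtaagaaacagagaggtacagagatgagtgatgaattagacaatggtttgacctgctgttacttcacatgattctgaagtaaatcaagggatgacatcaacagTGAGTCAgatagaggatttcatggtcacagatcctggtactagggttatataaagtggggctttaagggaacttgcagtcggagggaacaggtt
Mmp1b: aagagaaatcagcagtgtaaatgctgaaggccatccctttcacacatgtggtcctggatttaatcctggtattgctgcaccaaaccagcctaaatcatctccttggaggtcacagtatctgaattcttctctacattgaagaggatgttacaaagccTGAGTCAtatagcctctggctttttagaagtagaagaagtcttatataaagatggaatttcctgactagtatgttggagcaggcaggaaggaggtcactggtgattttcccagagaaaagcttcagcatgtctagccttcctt
Mmp3: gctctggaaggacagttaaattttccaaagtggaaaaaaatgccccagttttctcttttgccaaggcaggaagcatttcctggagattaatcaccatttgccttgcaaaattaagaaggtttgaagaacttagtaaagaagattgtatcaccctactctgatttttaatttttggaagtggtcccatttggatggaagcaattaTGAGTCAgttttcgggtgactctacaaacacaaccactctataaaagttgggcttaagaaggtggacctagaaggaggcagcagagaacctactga
Mmp10: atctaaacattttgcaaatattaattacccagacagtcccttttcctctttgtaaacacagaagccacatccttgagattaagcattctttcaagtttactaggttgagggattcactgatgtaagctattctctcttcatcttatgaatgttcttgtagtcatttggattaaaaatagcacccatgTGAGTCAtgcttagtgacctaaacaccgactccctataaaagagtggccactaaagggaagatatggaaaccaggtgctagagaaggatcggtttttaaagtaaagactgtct
Each of the 5 windows held 1 match, beginning 35, 44, 93, 46 and 63 bases before the start in the order printed. For Mmp12 the start that has a match is printed, and the other start in the table had none. Of all 32851 promoters in the table, 7.8% held the motif, and of 27025 genes 9.0% held it at some start. Among the genes named here that rose and have an entry, 15 of 93 held it (16.1%), and among those that fell 4 of 85 (4.7%). The 15 include the 5 genes printed above, of which Mmp3 and Mmp10 were added after their values were seen. The share among the genes that rose therefore partly repeats that cluster. The genes were chosen with their values known, so these shares are a description, and a match is not evidence of binding. GGAATG, the core of TEAD factor sites, occurred in 16.6% of all genes, in 21.5% of the named genes that rose and in 11.8% of those that fell, and the E-box CACCTG of ZEB and SNAI factors in 22.6%, 17.2% and 18.8%, searched in the same way.

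Of 19 tested genes of plasminogen activation, the protease cascade that works beside the metalloproteinases, 4 rose and 2 fell. Serpinb2, which encodes plasminogen activator inhibitor 2, rose 20.2-fold from 159 and 57 to 806 and 3555, with a wide gap between the knock-down libraries but none overlapping a control. Plau, the urokinase gene, rose 1.66-fold from 11501 and 15642 to 24028 and 21015 (adjusted p = 0.0178), but not without either Unc5b knock-down library or either Ntn1 knock-down library. Prss22, a serine protease gene, rose 1.77-fold. The list kept 2 of its 6 calls without Unc5b knock-down library 2, 3 without library 1 and 4 without either Ntn1 knock-down library, and without empty vector library 1 it had 8 genes higher and 3 lower. Among 16 tested ADAM and ADAMTS genes, 4 rose and 2 fell. Adamts14, a procollagen-processing enzyme gene, went from 8 and 48 to 485 and 340, and Adamts4, an aggrecanase gene, from 57 and 66 to 224 and 236. Adamts1 went down 2.69-fold, from 2840 and 2828 to 996 and 1112, and 3 of the 6 calls were kept without Unc5b knock-down library 2.

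Markers of the mesenchymal state moved in both directions. Of 22 tested genes for mesenchymal cytoskeleton and EMT effectors, 5 rose and 5 fell (median log2 fold change 0.02). Vim, the gene of the intermediate filament vimentin, fell 7.59-fold from 582 and 1102 to 85 and 137 (log2 fold change -2.83 ± 0.31 SE, adjusted p = 0.00124). The Ntn1 knock-down libraries, at 1101 and 1009, were at the upper control level, and Unc5b minus Ntn1 knock-down was -3.23 log2 units (adjusted p = 0.00151, a call lost without Ntn1 knock-down library 1). Fbn1, the fibrillin-1 gene, fell 6.5-fold from 3083 and 2899 to 541 and 380, and Ncam1, a neural cell adhesion molecule gene, 4.22-fold from 1470 and 1889 to 432 and 364.

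Against these falls, Tnc (tenascin C) rose from 12 and 18 to 126 and 188, Emp3 (an epithelial membrane protein family gene) from 16 and 5 to 192 and 197, Sparc (a matricellular protein) from 354 and 640 to 1372 and 1274, and Itga5 (the fibronectin receptor subunit) from 574 and 558 to 1406 and 1299. Fn1, fibronectin, read 14154 and 29839 against 54200 and 36578, short of the threshold (adjusted p = 0.0548). Its groups did not overlap, which held on the higher side for 28.7% of all tested genes. At least 8 of the 10 calls were kept in each of the fits without a library.

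Of 27 tested EMT transcription factor genes, 5 rose and 9 fell. Trps1, a GATA-type repressor gene, fell 53.3-fold, from 204 and 542 to 9 and 5. Twist1, a basic helix-loop-helix EMT factor, fell 4.43-fold from 175 and 281 to 66 and 37 (adjusted p = 0.00658), and its relative Twist2 2.59-fold from 1211 and 1347 to 650 and 338, a call lost without empty vector library 2 or Unc5b knock-down library 2. Prrx1, a homeobox EMT factor, rose 2.24-fold from 2728 and 3165 to 6867 and 6356 (adjusted p = 0.000712), and Sox4 rose 1.95-fold. Factors of this list thus moved in both directions, and 9 of the 14 calls were kept without Unc5b knock-down library 2. Among 18 tested epithelial transcription and splicing factor genes, 3 rose and 1 fell: Klf4 went down 3.07-fold, from 2195 and 1617 to 460 and 781, and Ehf (16 and 43 against 365 and 111) was called higher except without Unc5b knock-down library 1 or Ntn1 knock-down library 1, 1 of the 4 calls being kept without Unc5b knock-down library 1. Grhl2 and Esrp1, which maintain the epithelial program, differed by -0.35 and -0.11 log2 units and did not pass the test.

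Adhesion and junction genes moved in both directions. Epcam, on which the cells were sorted, read 8032 and 9336 against 9186 and 9121. Of 24 tested genes for cadherins, catenins and adherens junctions, 3 rose and 7 fell. Pcdh19, the gene of a delta-protocadherin, fell 154.5-fold from 869 and 1139 to 4 and 9 (log2 fold change -6.48 ± 0.26 SE, adjusted p = 3.32e-05). It was at 1141 and 1034 in the Ntn1 knock-down, so the control and Ntn1 knock-down libraries sat together and the Unc5b knock-down libraries apart. Cdh2, N-cadherin, was low in the empty vector (43 and 98), lower in the Unc5b knock-down (9 and 7) and high in the Ntn1 knock-down (811 and 709). Fat4, an atypical cadherin gene, fell 10.7-fold, and Cdh13, which encodes a cadherin anchored by lipid, fell 2.44-fold. Pcdh7 rose 2.32-fold from 5827 and 5067 to 12905 and 12355, and Fat2, a keratinocyte atypical cadherin gene, from 16 and 11 to 154 and 79. The highly expressed catenin genes Ctnnb1 (17479 and 24690 against 23607 and 17807) and Ctnna1 overlapped between the groups or missed the threshold, and 6 of the 10 calls were kept without Unc5b knock-down library 2.

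Of 29 tested desmosome and tight or gap junction genes, 5 rose and 4 fell. Gja1, connexin 43, rose 2.03-fold from 4111 and 2945 to 6906 and 7433. Gjb2, connexin 26, had no reads in either empty vector library and 17 and 46 with the knock-down, at least 4.59-fold higher, counted against the 3-read floor of the empty vector libraries. These values fall short of the filter mean without those of the Ntn1 knock-down libraries. The desmosomal genes Pkp1 (1.39-fold) and Perp (1.44-fold) fell slightly, calls that were lost without empty vector library 1, without either Unc5b knock-down library and without either Ntn1 knock-down library. The list kept 3 and 4 of its 9 calls without Unc5b knock-down library 1 or 2, 6 without empty vector library 1, and 5 without either Ntn1 knock-down library. Among 15 tested keratin genes 4 rose and 1 fell (median 0.50). Krt17 and Krt6a, keratins of stressed and wounded epidermis, rose 11.4-fold (57 and 41 against 365 and 753) and 11.3-fold (14 and 7 against 62 and 176), and Krt5, of the basal layer, 2.43-fold (287 and 320 against 697 and 776). Krt19 fell 2.16-fold. The abundant simple-epithelial keratins Krt8 (17575 and 15208 against 15645 and 18840) and Krt18 (9797 and 11337 against 12621 and 12596) did not pass the test.

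Of 15 tested genes of keratinocyte terminal differentiation, 7 rose and 2 fell (median log2 fold change 1.30). S100a14, a calcium-binding protein gene of the epidermal differentiation complex on chromosome 3, rose 12.7-fold from 118 and 151 to 1725 and 1691 (adjusted p = 3.32e-05). From the same complex, Sprr1a, a cornified envelope precursor, went from 26 and 46 to 218 and 162, S100a8, a calprotectin subunit, from 2 and 7 to 79 and 76, and Lor, loricrin, from 26 and 16 to 126 and 102. The call of Lor was lost without Unc5b knock-down library 1, without which 4 of the 9 calls were kept, and 5 were kept without library 2. Tgm1, a cross-linking transglutaminase gene, fell 2.06-fold (adjusted p = 0.00899, lost without Unc5b knock-down library 2). Flg and Krtdap, late markers, were at 0 in all 6 libraries.

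Of 19 tested hemidesmosome and basement membrane genes, 3 rose and 3 fell. Lama3, a chain of laminin-332, the ligand under hemidesmosomes, rose 3.4-fold (4294 and 3011 against 11477 and 13355). Lamb3, another chain, rose 1.53-fold (2861 and 2275 against 3881 and 3963), a call that was lost without empty vector library 2, either Unc5b knock-down library or either Ntn1 knock-down library, leaving 5 of the 6 calls. Col4a1 and Col4a2, the paired chains of type IV collagen on chromosome 8, fell 1.69-fold (12701 and 12020 against 7218 and 7407) and 1.9-fold. Fras1, of the Fraser complex, fell from 320 and 871 to 62 and 12. Of 18 tested integrin genes 4 rose and none fell. Itgb3, the beta-3 subunit, went from 6 and 2 to 77 and 162 (adjusted p = 0.0011), Itga5 is given above, and Itga2 rose 1.97-fold except without Unc5b knock-down library 2, which left 2 of the 4 calls. The abundant Itga3, Itgb1 and Itga6 did not pass the test. Of 18 tested collagen and cross-linking genes 1 rose and 4 fell, among them Col12a1 (798 and 1159 against 103 and 56), Col27a1 (73 and 103 against 4 and 0) and Lox, lysyl oxidase (71 and 82 against 13 and 5).

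Several inflammatory genes rose. Of 15 tested interleukin, colony-stimulating factor and TNF family ligand genes, 7 rose and none fell (median 1.14). Il1a, interleukin-1 alpha, an alarmin of keratinocytes, read 1246 and 903 in the empty vector and 12275 and 11227 with the knock-down, 10.9-fold higher (log2 fold change 3.46 ± 0.15 SE, adjusted p = 3.32e-05). Tnf rose 9.24-fold from 10 and 7 to 64 and 93, and Csf2, the gene of the growth factor GM-CSF, 4.42-fold from 399 and 174 to 1120 and 1413. Il1rn, the interleukin-1 receptor antagonist gene, rose too, from 26 and 34 to 175 and 130. Il1b (10 and 9 against 4 and 12) and Il6 (6 and 0 against 0 and 0) were at or near the floor and were not tested. In the Ntn1 knock-down Il1a stood at 10538 and 10494. The list kept 4 of its 7 calls without Unc5b knock-down library 2.

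Of 14 tested chemokine genes, 5 rose and 2 fell. Cxcl5, a neutrophil attractant, rose 5.53-fold from 947 and 828 to 5392 and 4426 (adjusted p = 0.000119), and Ccl2, a monocyte attractant, 7.18-fold from 49 and 117 to 498 and 693. Cxcl1 read 15040 and 8693 against 17394 and 21293 and missed the threshold (adjusted p = 0.0696). Cxcl12 and Cxcl14 went the other way, the latter from 41 and 126 to 9 and 7, a call lost without either Unc5b knock-down library. Without Unc5b knock-down library 1 or 2, 4 and 3 of the 7 calls were kept. Cxcl5, Cxcl2 and Ppbp lie together on chromosome 5, in the part shifted upwards, and the calls of Cxcl2 (2.08 log2 units) and Ppbp (0.84 log2 units) were lost with regional centring and without any of the 4 knock-down libraries.

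Of 27 tested NF-kB subunit and feedback genes, the transcription system that responds to interleukin-1 and TNF, 12 rose and none fell, and 24 had a positive log2 fold change (median 0.46). Tnfaip3, which encodes the feedback inhibitor A20, rose 2.7-fold from 3634 and 3066 to 8569 and 9550 (log2 fold change 1.44 ± 0.12 SE, adjusted p = 0.000439). Lcn2, lipocalin 2, rose 4.07-fold from 1674 and 2243 to 10368 and 5571, and Nos2, inducible nitric oxide synthase, 9.43-fold from 39 and 69 to 678 and 340. The subunit genes Rela (1637 and 1427 against 1678 and 1531) and Nfkb2 did not pass the test. Between 6 and 8 of the 12 calls were kept without empty vector library 2, an Unc5b knock-down library or an Ntn1 knock-down library, and 9 with regional centring. Among 42 tested cytokine receptor and JAK-STAT genes 8 rose and 2 fell, with Lepr and Il13ra2 given above, Cish, a feedback gene, up 5.2-fold (22 and 34 against 133 and 158) and Il1rl1, the interleukin-33 receptor, up 6.33-fold except without Unc5b knock-down library 2. In this list 5 or 6 of the 10 calls were kept without an Unc5b or an Ntn1 knock-down library.

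Interferon response and antigen presentation genes were mostly lower where they were called, beside 12.0% of all genes tested called and 6.07% called lower. The share called in the interferon list was near that of all genes. With the filter raised to a mean of 100, which drops genes of low level, none of the 3 interferon calls remained. Of 22 tested interferon response genes none rose and 3 fell, of which Gbp7, a guanylate-binding protein gene, went from 138 and 135 to 34 and 28, and Ifit2 from 77 and 123 to 15 and 0, the latter call being lost without empty vector library 2 or Unc5b knock-down library 2. Irf1 (2637 and 2728 against 2481 and 2951) overlapped between the groups. Without Unc5b knock-down library 2, 1 of the 3 calls was kept. Of 19 tested antigen presentation genes 1 rose and 4 fell, all 4 on chromosome 17. Tapbp, tapasin, fell 2.62-fold from 5841 and 7408 to 2855 and 2200. H2-K1, H2-Q4 and H2-T23, class I histocompatibility genes, fell 1.44-fold, 1.64-fold and 3.26-fold, and these 3 calls were lost with regional centring, as they were without Unc5b knock-down library 2 or either Ntn1 knock-down library, leaving 1 of the 5 calls in each of these fits, while 3 were kept without Unc5b knock-down library 1 and 2 without empty vector library 2.

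Of 38 tested Wnt pathway genes, 4 rose and 12 fell (median log2 fold change -0.09). Rspo3, an R-spondin that amplifies Wnt signals, fell from 193 and 327 to 2 and 0 (log2 fold change -5.44 ± 0.38 SE, adjusted p = 0.000298). Its receptor gene Lgr5 read 43 and 322 against 2 and 2, and the feedback gene Axin2 read 79 and 345 against 11 and 2. Both were called, but the call of Lgr5 was lost without either Unc5b knock-down library and that of Axin2 without library 2, and empty vector library 2 was several times above library 1 in both genes. Fzd8, a Wnt receptor gene, fell 12.9-fold from 85 and 121 to 11 and 5. Nkd2, Fzd3 and Fzd4 rose 2.08-fold to 3.02-fold, calls lost without either Unc5b knock-down library. Lrp6 and Ccnd1 differed by less than 0.13 log2 units. The list kept 4 of its 16 calls without Unc5b knock-down library 2 and 7 without library 1.

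Hedgehog genes had 4 rises and 5 falls among 15 tested, beside 12.0% of all genes tested called. The share called in the Notch list, given below, was little above that of all genes. Hhip and Ptch1, the feedback inhibitors that hedgehog signalling itself induces, fell 22.7-fold (352 and 556 against 21 and 19, adjusted p = 0.000281) and 1.73-fold (1366 and 1427 against 774 and 838). Foxf2, given above, stands in this list as a target, and Disp2, a family member of the ligand-release protein, rose. Foxf1, another forkhead gene of the list, went the other way from Foxf2. It was called higher in the fit of all 6 libraries (10 and 32 against 103 and 63, adjusted p = 0.0313), and its calls in the other fits are not given here. Gli1, also of this list, read 0 and 5 in each of the 2 groups and was not tested. Without Unc5b knock-down library 2, 4 of the 9 calls were kept, and 6 without library 1 or either Ntn1 knock-down library. Of 19 tested Notch genes 2 rose and 1 fell, and none of these calls was kept without Unc5b knock-down library 2. Jag1, a ligand, rose 1.97-fold (1712 and 1509 against 2533 and 3826) and Notch1 fell 1.77-fold (796 and 631 against 404 and 401), the latter call being lost without any of the 4 knock-down libraries. With empty vector library 1 left out, 4 Notch genes were higher and 1 lower. Hes1, a target, read 6998 and 7155 against 5705 and 5357 (adjusted p = 0.0528).

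In the TGF-beta, activin and BMP list 5 of 43 tested genes rose and 8 fell. Thbs1, thrombospondin 1, an activator of latent TGF-beta and a gene of high level here, fell 3.11-fold from 74400 and 92876 to 31064 and 22722 (log2 fold change -1.65 ± 0.17 SE, adjusted p = 0.000885). Id2, a target of BMP signalling, fell 2.88-fold from 3087 and 4072 to 1573 and 915. Bmp7 rose 4.14-fold from 332 and 761 to 2347 and 2173, and Tgfbr1, the type I receptor, 1.61-fold from 1720 and 1699 to 2785 and 2735. Bmp4 and Tgfbi fell, at 96 and 265 against 43 and 19 and at 698 and 1098 against 449 and 236, but not without empty vector library 2, Unc5b knock-down library 2 or either Ntn1 knock-down library. Of the 13 calls, 7 or 8 were kept without an Unc5b or an Ntn1 knock-down library. Among 27 tested YAP and TAZ genes none rose and 6 fell (median -0.35). Yap1 itself fell 2.2-fold from 2095 and 2394 to 992 and 1047 (adjusted p = 0.00119) and Axl, a receptor kinase gene, 1.79-fold from 4679 and 3988 to 2584 and 2247, whereas Ctgf (7985 and 13129 against 8239 and 6733) overlapped between the groups. Without Unc5b knock-down library 2, 3 of the 6 calls were kept.

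Of 38 tested genes for the EGF receptor family, its ligands and ERK feedback, 5 rose and 4 fell. Tgfa, a ligand, rose 2.03-fold (1832 and 1422 against 3255 and 3338), and Areg, amphiregulin, 4.34-fold (499 and 197 against 1084 and 1939) except without Unc5b knock-down library 2. Fgfr1 fell 3.31-fold from 4202 and 6194 to 1998 and 1144, and Spry2, an ERK feedback inhibitor gene, 1.96-fold from 792 and 857 to 445 and 398. Without Unc5b knock-down library 2, 3 of the 9 calls were kept, and 5 without either Ntn1 knock-down library. In the list of AP-1, EGR and immediate early genes 3 of 25 rose and 3 fell. Jun rose 2.02-fold (1401 and 1221 against 2434 and 2865, adjusted p = 0.00298) and Fosl2 fell 1.77-fold (4235 and 4612 against 2640 and 2360). Junb fell 1.6-fold, a call lost without Unc5b knock-down library 2 and with regional centring, and 2 of the 6 calls were kept without that library, while 6 genes were higher and 4 lower without empty vector library 1.

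Genes of axon guidance, the setting in which netrin receptors were found, moved in both directions: 6 of 39 tested semaphorin, plexin, neuropilin, ephrin and Slit genes rose and 6 fell. Besides Nrp1, the falls included Ephb6 (61 and 149 against 2 and 2), Plxna2, a semaphorin receptor (558 and 784 against 222 and 169), and Epha4, an ephrin receptor (1120 and 963 against 291 and 449). Sema4b rose 1.97-fold, and Slit2, a secreted repellent, 2.58-fold (165 and 183 against 569 and 329), the latter except without Unc5b knock-down library 1. Nrp2, the related neuropilin gene, did not follow Nrp1, at 6395 and 6617 against 7141 and 5890. In this list 8 of the 12 calls were kept without either Unc5b knock-down library or Ntn1 knock-down library 1.

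In the VEGF and angiopoietin list 3 of 15 tested genes rose and 4 fell. Pdgfa, a platelet-derived growth factor chain, rose 3.3-fold from 2189 and 1873 to 6230 and 7190, and Ccbe1, needed for VEGF-C processing, 2.78-fold from 2865 and 2572 to 7248 and 7871. Flt4 and Nrp1, described above, and Angpt1, angiopoietin 1 (41 and 107 against 0 and 2), fell. Vegfa fell 1.42-fold (6273 and 7445 against 5298 and 4357), a call lost without empty vector library 2, either Unc5b knock-down library or either Ntn1 knock-down library, and with regional centring. Among 23 tested neuronal microtubule and neurofilament genes 2 rose and 6 fell. Map2, a dendritic microtubule-associated protein gene, fell 21.8-fold from 505 and 846 to 41 and 21 (adjusted p = 0.000404), and Dclk1, a doublecortin-like kinase gene, 5.23-fold from 2319 and 1973 to 346 and 475. Nes, nestin, rose from 24 and 16 to 188 and 208. Stmn2, Nefm and Nefl, neuronal genes that were low in the empty vector (31 and 57, 0 and 0, 0 and 0), were low with the Unc5b knock-down (2 and 14, 2 and 0, 0 and 0) and high in the Ntn1 knock-down (1184 and 1186, 181 and 122, 133 and 86). Of 13 tested cell surface genes used to sort tumour cell states, 3 rose and 1 fell, Cd44 reading 14071 and 14156 against 18888 and 22343, a call lost without Unc5b knock-down library 2 or either Ntn1 knock-down library. Without any 1 of the 4 knock-down libraries 2 of these 4 calls were kept. Of 19 tested channel and transporter genes 1 rose and 4 fell, Aqp5, a water channel, going from 1362 and 1610 to 169 and 86, and 3 of the 5 calls were kept without empty vector library 2, an Unc5b knock-down library or an Ntn1 knock-down library, while 2 were higher and 6 lower without empty vector library 1.

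Since UNC5B is a dependence receptor, the genes of cell death and growth were set side by side. Of 45 tested apoptosis genes 5 rose and 1 fell, 13.3% against 12.0% of all genes. Tnfrsf23, a decoy receptor gene for the death ligand TRAIL, rose 2.18-fold from 511 and 629 to 1368 and 1114. Pmaip1 (NOXA) rose 1.79-fold and Bcl2l11 (BIM) 1.7-fold, calls lost without Unc5b knock-down library 1, the latter also without library 2 and the former also with regional centring. Fas, the death receptor gene, fell 2.11-fold (537 and 940 against 385 and 315), a call lost without empty vector library 2, without any of the 4 knock-down libraries and with regional centring. Of the 6 calls 1 was kept without Unc5b knock-down library 1, 3 without library 2 or either Ntn1 knock-down library and 4 without empty vector library 2, and 8 genes were higher and 2 lower without empty vector library 1. Mcl1, a survival gene of the BCL2 family, did not pass the test.

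Among 58 tested cell cycle and replication genes 1 rose and 2 fell, which is 5.17% beside 12.0% of all genes tested. The share called among the p53 target genes, given below, was little above that of all genes. Mki67 read 16164 and 11881 against 8733 and 10453 (adjusted p = 0.0651) and Top2a 18047 and 18489 against 18052 and 21666. Cdkn1b, which encodes the inhibitor p27, fell 2.08-fold (2403 and 3398 against 1511 and 1274), while Ccnd2, cyclin D2, was called higher (61 and 190 against 474 and 572) and Cdk6 lower (19197 and 16545 against 13865 and 12153). All 3 calls were lost without Unc5b knock-down library 2, 1 was kept without library 1, and that of Cdk6 was also lost with regional centring, without empty vector library 1 and without either Ntn1 knock-down library. The count was not stable upwards either: without empty vector library 2, 1 gene was called higher and 13 lower, and without library 1, 4 higher and 3 lower. Of 25 tested p53 target genes 2 rose and 2 fell in these cells, whose genotype label includes floxed p53 alleles, and none of the 4 calls was kept without Unc5b knock-down library 1, 1 without library 2 or either Ntn1 knock-down library and 2 without empty vector library 1. Of 77 tested ribosomal protein genes 1 rose and 2 fell, all 3 calls being lost with regional centring and without any of the 4 knock-down libraries and 1 being kept without empty vector library 2 (without library 1, 1 was higher and 4 lower), and of 13 mitochondrially encoded genes none was called.

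Metabolic and stress lists held a few sharp changes, beside 12.0% called of all genes tested. The share called in the stress response list and in the cholesterol list was below that of all genes. In the hypoxia and glycolysis list 1 of 40 tested genes rose and 6 fell. Pfkp, a phosphofructokinase gene, fell 1.9-fold (1287 and 1239 against 641 and 688), while Pkm, Gapdh and Eno1 did not pass the test. Without empty vector library 2 or an Unc5b or Ntn1 knock-down library, 2 or 3 of the 7 calls were kept. Of 32 tested NRF2 target and glutathione genes 3 rose and 6 fell: Gstm1 fell 7.38-fold (1281 and 2106 against 267 and 192), Aldh3a1 3.65-fold (5882 and 6018 against 2390 and 866), and Slc7a11, the cystine transporter, rose 1.84-fold (1881 and 1683 against 3390 and 3152). Here 5 or 6 of the 9 calls were kept without empty vector library 2, without Unc5b knock-down library 2 or without an Ntn1 knock-down library. Among 24 tested heat shock genes 4 rose and 3 fell. Hspb1, the small heat shock protein 27 gene on chromosome 5, rose 6.3-fold (210 and 302 against 1641 and 1584, adjusted p = 0.000252) and Cryab, alpha-B-crystallin, fell 5.2-fold (554 and 631 against 124 and 104), while 2 to 4 of the 7 calls were kept without empty vector library 2 or a knock-down library, and 3 with regional centring. Of 37 tested stress response genes 1 rose and 3 fell, and Phgdh, of serine synthesis, fell 3.02-fold (4620 and 3910 against 1342 and 1480). Of 44 cholesterol and fatty acid genes none rose and 3 fell, with Apob at 945 and 1303 against 177 and 88, and 1 of these calls was kept without Unc5b knock-down library 2. Without library 1 this list had 7 genes lower, and without empty vector library 1 it had 3 higher and 5 lower. Hspa5, the chaperone BiP, read 22194 and 19586 against 20777 and 19663.

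**Figure D4:**
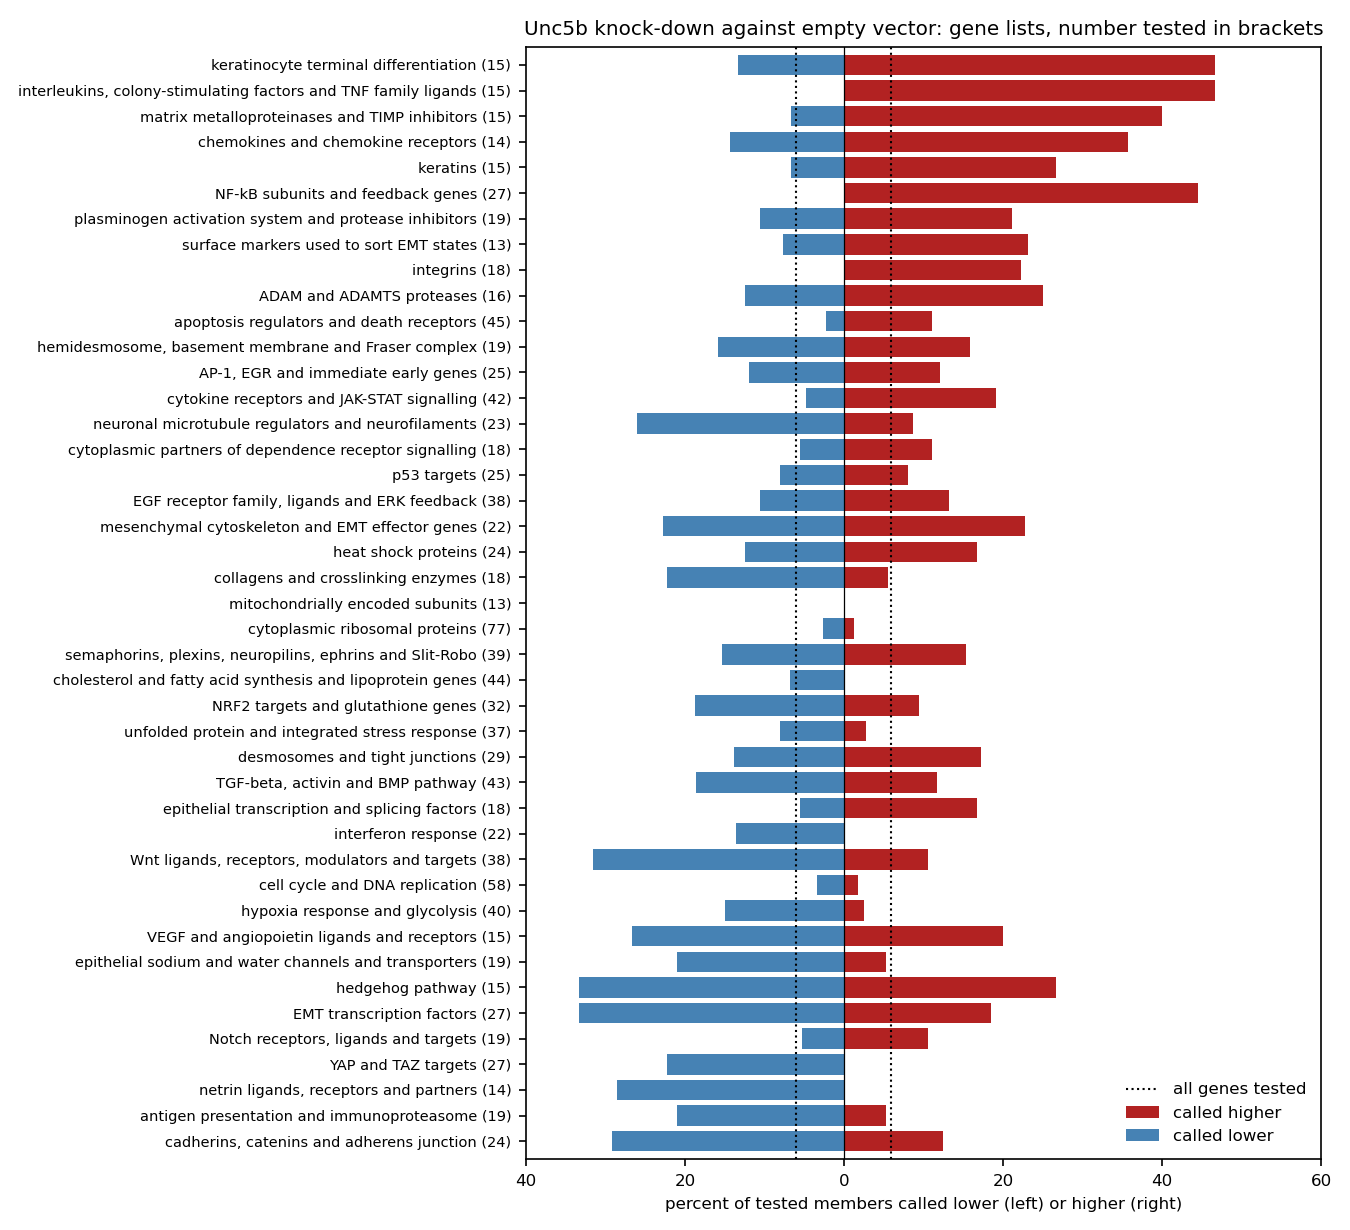
Percentage of the tested members of each gene list called higher (red, to the right) or lower (blue, to the left) in Unc5b knock-down against empty vector, for lists with at least 10 tested genes, ordered by median log2 fold change, with the number tested in brackets. Dotted lines mark the percentages of all genes tested, 5.90% higher and 6.07% lower. The cytokine ligand, NF-kB and integrin lists have red bars alone, and the netrin, YAP and TAZ, interferon response and cholesterol lists have blue bars alone. The netrin list includes Unc5b, the target of the knock-down.

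Markers of other cell types were checked in the same libraries, since the cells had been sorted. The general leukocyte gene Ptprc read 2 and 2 against 4 and 5, and Adgre1, Cd4 and Cd8a were at 0 in all 6 libraries. Of 26 immune markers 5 were tested and 2 rose, S100a8, given above and also made by keratinocytes, and Mrc1, a mannose receptor gene (4 and 2 against 21 and 56, lost without Unc5b knock-down library 2). Mrc1 reached the filter mean only through the Ntn1 knock-down libraries (350 and 263). The summed immune marker values took 0.007% and 0.008% of the total in the empty vector and 0.01% and 0.007% with the knock-down. Most of that sum came from Csf1r, a macrophage growth factor receptor gene (1213 and 1511 against 1569 and 1003, not called), so it does not follow the other members, and S100a9, the partner of S100a8, read 2 and 0 against 47 and 21 and was below the filter. The fibroblast genes Dcn, Lum and Thy1 were at 0 to 4, and of 4 tested fibroblast markers Twist2 was called lower. Fbln1 (700 and 576 against 530 and 570), Pdgfra (90 and 69 against 169 and 109) and Col1a1 (18 and 27 against 30 and 21) did not pass the test. Of the endothelial markers none of 5 tested was called, and 4 of these were detected in both groups. Flt1 read 163 and 236 against 256 and 188, and Pecam1 104 and 94 against 96 and 88. Eng read 81 and 48 against 51 and 51, and Lyve1 24 and 21 against 47 and 37. Cdh5 was at 0 and 0 against 2 and 0, and reached the filter mean only through the Ntn1 knock-down libraries. Mitf, a factor gene of the melanocyte lineage, fell 4.7-fold from 1513 and 1100 to 299 and 257, while Tyr, Dct and Sox10 stayed at 0 to 4. Of 2 tested muscle and adipocyte markers Pparg was called lower, and not without empty vector library 2 or any knock-down library. The part of other cells in the results was not otherwise tested.

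Both knock-downs share the empty vector libraries, so their comparisons with it are not independent and no overlap between them is given. The direct comparison of the Unc5b with the Ntn1 knock-down called 1088 of 15330 genes (7.10%), 452 higher (2.95%) and 636 lower (4.15%) in the Unc5b knock-down. Genes called against both other groups in the same direction, with both Unc5b knock-down libraries outside all other libraries, numbered 367 (2.39%), 96 higher (0.626%) and 271 lower (1.77%). The direct comparison was sensitive to the libraries, with 318 and 330 calls without Unc5b knock-down library 1 or 2, 34 and 52 without Ntn1 knock-down library 1 or 2, and 1815 and 1842 without empty vector library 1 or 2.

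Among the genes lower than in both other groups, the 10 with the largest difference were led by Pcdh19. Trps1 (392 and 459 in the Ntn1 knock-down), Map2 (559 and 761) and Flt4 (416 and 440) are described above. Kalrn, a guanine nucleotide exchange factor gene, read 0 and 2 with the Unc5b knock-down, against 114 and 117 with the empty vector and 78 and 89 with the Ntn1 knock-down. Lrch2 read 9 and 2, 90 and 169, and 238 and 239 in the same order, and Slfn9, a Schlafen family gene, 17 and 12, 214 and 187, and 228 and 171. These 7 genes kept both calls in all 6 fits without a library. Dpysl3, a collapsin response mediator gene (4 and 0, 49 and 149, 155 and 122), Pdzrn3, a ubiquitin ligase gene (30 and 42, 230 and 800, 545 and 535), and Grb14, an adaptor gene (2 and 0, 61 and 114, 67 and 49), lost the call against the Ntn1 knock-down without either of its libraries.

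On the higher side, Sel1l2 was at 100 and 125 with the Unc5b knock-down and at 0 in the other 4 libraries, at least 16.4-fold above the 3-read floor of the empty vector libraries. It reached the filter mean of 20 only through the Unc5b knock-down libraries, for whose high values it was also picked. Its calls therefore add no support to that difference. Stag3, a cohesin subunit gene of meiosis, read 180 and 204 against 4 and 18 with the empty vector and 10 and 9 with the Ntn1 knock-down, and lost the latter call without either Ntn1 knock-down library. The remaining 8 (Lepr, A630095E13Rik, Snhg11, Chst15, Gjb5, Lor, Gstp3 and Adap1) lost the call against the Ntn1 knock-down without Unc5b knock-down library 1 and without either Ntn1 knock-down library, and all but Chst15 and Gjb5 also without Unc5b knock-down library 2. Gstp3, Adap1, Gjb5 and Lor also lost the call against the empty vector without Unc5b knock-down library 1, and the former 2 without library 2. The plot of these 20 genes gives each library.

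**Figure D5:**
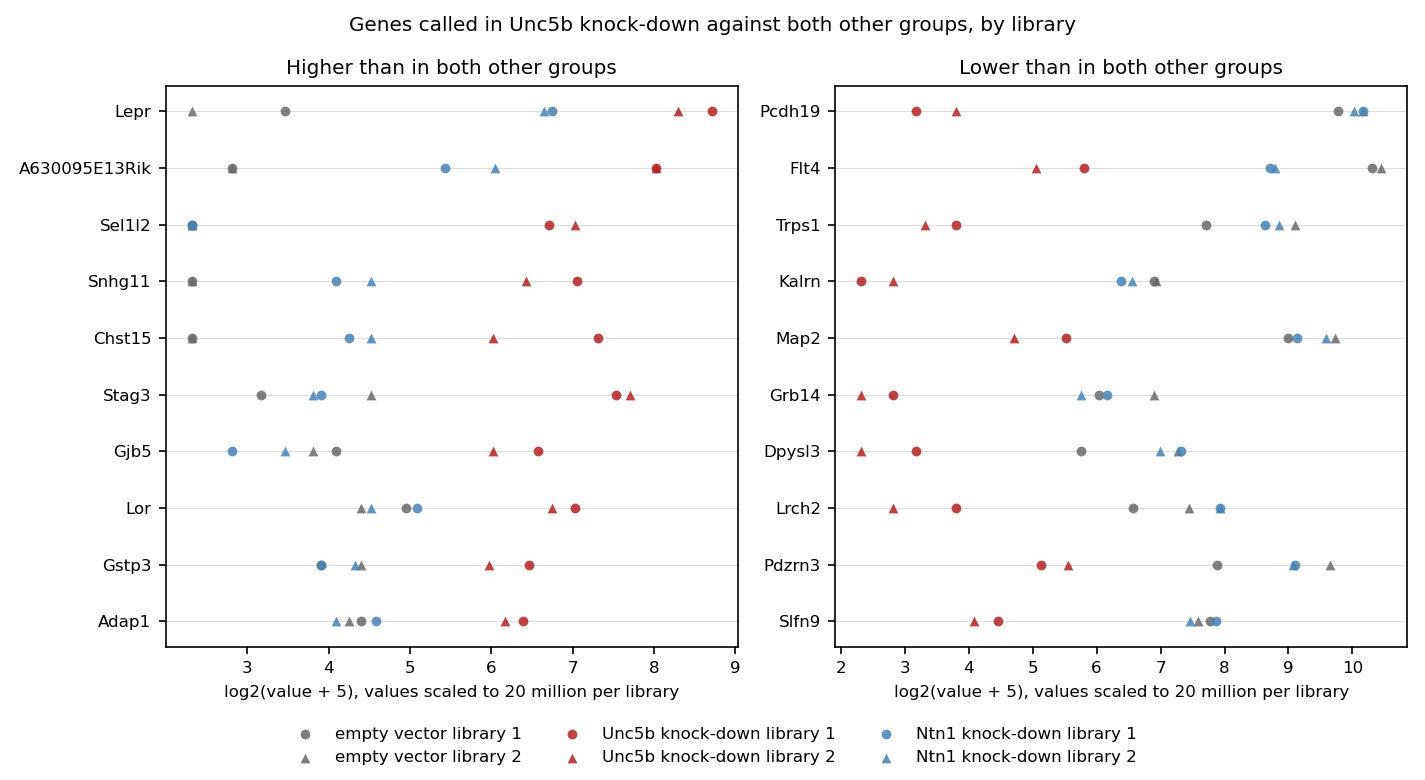
Scaled values as log2(value + 5) of the 10 genes highest and the 10 lowest in the Unc5b knock-down relative to both other groups, 1 point per library, chosen for that difference. In the right panel the red points lie left of all grey and blue points, which overlap each other for Pcdh19, Trps1, Map2 and Slfn9, and in the left panel the red points of Sel1l2, at 100 and 125, stand against 0 in the other 4 libraries.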

How the data were processed

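RNA sequencing of 6 libraries in 3 groups was analysed, with groups taken from the treatment labels. Each deposited value is a score for 1 of 49671 genes: the whole numbers sum to about 20 M in every library, from which they were taken to be reads scaled to that total and rounded. How the authors made this step is not given in the sources used here. STAR, Picard and HTSeq and the build GRCm38 (mm10) are named, without versions, per the submitters' processing notes. The scaled values fall on steps of 1.965 to 3.058, which put the depth at 6.54 to 10.2 M reads, so a fold of a gene near 3 reads is imprecise. No count model was used.

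Values were taken as log2(value + 5), and 15330 genes whose mean over the 6 libraries reached 20 were fitted with limma 3.58.1 in R 4.3.3 (3 groups, variance trend, 3 residual degrees of freedom, 2-sided, Benjamini-Hochberg adjustment, called at an adjusted p under 0.05). Every adjusted p is from this fit. Fold values are ratios of group means, and log2 fold changes are on the log2(value + 5) scale, which understates low genes. An exact permutation test of 2 against 2 cannot go below p = 0.333 and was not used. The code was tested on simulated data.

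Named genes were Unc5b and the detected netrin genes, the 20 largest rises and falls among called protein-coding genes without overlap, up to 4 called members in each direction and the 3 highest not called in each of 48 lists, and 10 genes in each direction that differed from both other groups. Mmp3 and Mmp10 were added after their values were seen, as were a few single values given for completeness. The genes and lists were chosen with earlier results of these data known. Alternatives covered the pseudocount (1, 20), the filter (none, 100), scaling, the variance trend, the groups fitted, the replicate number as a block and each library left out. Promoter sequences are from RefSeq. One further allele of the genotype label and some genes chosen by the rule are not reported here, though the counts include them.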

Additional observations from a re-analysis of the deposited data

How the results depend on the processing

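Among the 392 named genes, none that was called in the main fit or an alternative changed direction between these fits. For the comparison with the Ntn1 knock-down, only Unc5b and the genes named for differing from both other groups were checked. Directions of all other genes were not checked. Of the counts of called genes against the empty vector (1835) and against the Ntn1 knock-down (1088), the pseudocounts, the filter at a mean of 100, the 3 other scalings and the regional centring kept both within 1.5 times, at 1297 to 1855 and 890 to 1134. Without a filter they were 791 and 302, without the variance trend 1115 and 454, and with only the groups compared 965 and 1856. Without 1 library at a time they ranged from 680 to 2428 and from 34 to 1842. The group left with 1 library was then assumed to vary like the others.

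The replicate numbers did not pair the libraries: deviations from the group means correlated at r = -0.45 (empty vector with Unc5b knock-down), 0.16 (empty vector with Ntn1 knock-down) and -0.17 (Unc5b with Ntn1 knock-down). With the replicate block the counts were 1102 and 459. With the numbers of the Unc5b knock-down crossed, chosen after seeing the data like the regional centring, they were 3585 and 2617. Of 392 named genes, 250 were called, and 135 of these kept the call without any 1 library. The causes of these changes were not tested. At 6.54 to 10.2 M reads, differences in genes near 3 reads were not detectable.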
